A study of Mus musculus with 6 samples.

Results

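The 35 genes described here encode the machinery that carries newly made proteins between the endoplasmic reticulum (ER) and the Golgi apparatus. They were chosen by name and function, as genes of the COPII and COPI vesicle coats, cargo receptors and KDEL receptors. Earlier results of these data were known when they were chosen. All 35 were found among the 55487 genes of the table. Marginal zone (MZ) B cells are splenic B cells that respond early to antigens in the blood. They were taken from 14-week-old CD55KO mice, which lack CD55 (decay-accelerating factor, a membrane protein that restrains complement), and from 14-week-old wild-type (WT) C57BL/6 mice. B cells were enriched by negative selection and MZ B cells were then flow-sorted. RNA of 3 CD55KO and 3 WT libraries was sequenced. The labels give neither the deleted part of Cd55 nor the strain background or litters of the CD55KO mice, and they do not say whether the libraries came from separate mice, so p-values measure only the spread between libraries, which may be technical.

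Secretory proteins leave the ER in vesicles coated with COPII. The small GTPase SAR1, loaded with GTP by PREB, recruits the inner coat pair SEC23 and SEC24, which binds cargo, and then the outer cage of SEC13 and SEC31. COPI, the coatomer, returns escaped ER residents and recycled receptors from the Golgi, and KDEL receptors hand it the chaperones that carry a KDEL-type tail. Transmembrane cargo receptors (lectins, p24 proteins and relatives of yeast Erv proteins) link soluble cargo to these coats. B cells enlarge this pathway when they become antibody-secreting plasma cells, a step that MZ B cells take readily.

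Total counts per library were 24961311 to 29209592 in CD55KO and 20056064 to 30784031 in WT. Cd55 had 8.95, 6.23 and 7.42 CPM in CD55KO libraries 1 to 3 and 125, 119 and 110 CPM in WT libraries 1 to 3 (CPM, counts scaled to library size with the TMM method). All 7 MZ markers were present (summed level 3654 to 3836 CPM in CD55KO, against 3542 to 3728 CPM in WT). Summed follicular B cell markers were higher in CD55KO, at 1951 to 2187 CPM, against 1747 to 1938 CPM in WT. Their mean log2 CPM overlapped (7.347 to 7.76 in CD55KO, 7.361 to 7.447 in WT). Of these 5 markers 0 had a negative log2 fold change, against 49.6% of all tested genes, and 0 passed an adjusted p of 0.05 by edgeR. Summed B-1 cell markers overlapped (41.9 to 52.6 CPM in CD55KO, 37.6 to 48.6 CPM in WT). WT replicate 1 stood apart on the first principal component (-44.2, against -5.87 to 31.1 in the other libraries). Its summed erythroid markers reached 4351 CPM, against 35.8 to 1989 CPM in CD55KO and 105 and 356 CPM in the other WT libraries. Summed T cell markers were at 0.971 to 1.51 CPM in CD55KO, against 0.447 to 0.924 CPM in WT, and summed myeloid markers at 3.56 to 4.47 CPM in CD55KO, against 4.31 to 7.04 CPM in WT. Over all genes, 55 of 13794 tested (0.399%) passed an adjusted p of 0.05, with 36 lower (0.261%) and 19 higher (0.138%) in CD55KO.

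Of the 35 genes 34 were measured well enough to be tested, and 1 passed. Lman2l, a lectin of the ER, was the member that fell in CD55KO. The promoters of Lman2l and of its close relative Lman2 are shown because they are the member that changed and the relative with which it is compared below. Each window runs from 250 bases before to 50 after the annotated start (RefSeq, GRCm38.p6), 5′ to 3′ on the gene's own strand, and 31 of the 35 genes had such a window. Lman1, Tmed2, Arcn1 and Kdelr2 had none. Lman2l lies at chr1:36445222-36445521 (minus strand) and Lman2 at chr13:55362734-55363033 (minus strand). Capitals mark CCAAT and CCACG, the pieces of the ER stress response element, on either strand (ATTGG and CGTGG are their reverse complements).
Lman2l: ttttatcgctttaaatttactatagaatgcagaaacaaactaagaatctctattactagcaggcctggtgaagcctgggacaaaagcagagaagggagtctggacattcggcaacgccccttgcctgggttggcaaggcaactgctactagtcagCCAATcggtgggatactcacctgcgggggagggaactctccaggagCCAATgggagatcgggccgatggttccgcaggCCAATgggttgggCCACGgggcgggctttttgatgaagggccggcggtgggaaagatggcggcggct
Lman2: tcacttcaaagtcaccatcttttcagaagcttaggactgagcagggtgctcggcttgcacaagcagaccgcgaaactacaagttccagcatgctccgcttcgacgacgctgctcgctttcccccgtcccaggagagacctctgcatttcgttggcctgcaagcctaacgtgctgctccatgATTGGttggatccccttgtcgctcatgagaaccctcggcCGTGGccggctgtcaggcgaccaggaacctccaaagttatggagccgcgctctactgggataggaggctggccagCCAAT
The Lman2l window held CCAAT 3 times on its forward strand and CCACG 1 time, and the last CCAAT and the CCACG stood 8 bases apart. The ER stress response element itself has 9 bases between them (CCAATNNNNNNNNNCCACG). No member window held it on either strand, and 0.119% of all 32851 windows did. The spacing of 8, looked for after the Lman2l window had been read, occurred in 1 of 33 member windows and in 0.0213% of all windows. The related element ERSE-II, searched on both strands, was in no member window and in 0.0365% of all windows.

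The unfolded protein response element (UPRE, TGACGTGG, searched on both strands) was found in 5 of the 33 member windows (15.2%), against 0.676% of all windows. The 5 genes were Sec24d and Sec23a of the inner COPII coat, Copb1 and Copb2 of the COPI coat and the KDEL receptor gene Kdelr3. Stretches of 60 bases around these letters are given because they show how close to the start the element lies. Capitals mark TGACGTGG or its reverse complement CCACGTCA.
Sec24d (chr3:123267444-123267503, plus strand): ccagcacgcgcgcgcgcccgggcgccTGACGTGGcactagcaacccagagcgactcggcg
Sec23a (chr12:59011978-59012037, minus strand): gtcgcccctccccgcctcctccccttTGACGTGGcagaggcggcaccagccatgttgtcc
Copb1 (chr7:114254675-114254734, minus strand): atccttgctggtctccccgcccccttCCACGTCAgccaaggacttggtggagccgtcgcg
Copb2 (chr9:98563698-98563757, plus strand): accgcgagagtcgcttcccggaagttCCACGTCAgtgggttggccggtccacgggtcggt
Kdelr3 (chr15:79516352-79516411, plus strand): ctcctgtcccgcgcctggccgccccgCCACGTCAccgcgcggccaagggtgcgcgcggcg
The first letter lay 26, 28, 7 and 30 bases before the annotated start in Sec24d, Copb1, Copb2 and Kdelr3, and 6 bases past it in Sec23a. The piece CCACG, counted after the other letters had been searched, was in 24 of 33 member windows (72.7%) and in 32.8% of all windows. The median GC content was 58.0% for member windows and 52.7% for all windows, and its part in these counts was not tested. A match describes letters only. Sec24d, Sec23a, Copb1 and Copb2 did not pass the test between genotypes, and Kdelr3 was too low to be tested.

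Levels of the genes spanned a wide range in both genotypes, compared here as CPM per kb of annotated exonic length. Tmed9, a p24 cargo receptor gene, was the highest at 78.0 ± 7.95 CPM per kb in CD55KO and 78.5 ± 11.8 CPM per kb in WT (SD, n = 3 for this and all later group values). Cope, the epsilon subunit of COPI, followed at 69.5 ± 2.36 CPM per kb in CD55KO and 75.0 ± 6.56 CPM per kb in WT, a difference from Tmed9 within the spread of the libraries. Kdelr3 was the lowest, with 4, 2 and 0 counts in CD55KO libraries 1 to 3 and 0, 3 and 2 counts in WT libraries 1 to 3. It did not pass the count filter and no fold was computed, and its exons overlap Ddx17 on the opposite strand. A library count of 0 allows up to 3 counts, and such limits cover counting error only. Exonic length is the union of all annotated exons, so a gene with rarely used long exons appears lower per kb.

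**Figure D1:**
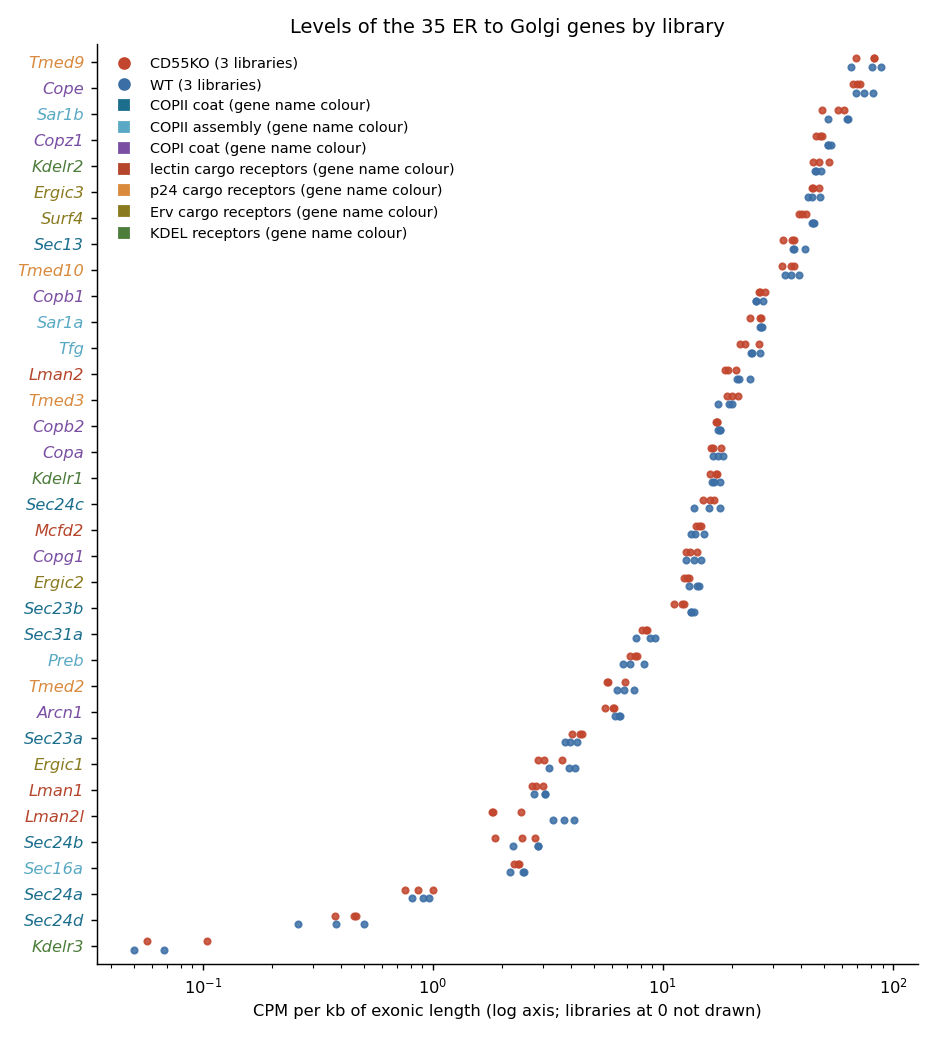
CPM per kb of exonic length (log axis) of the 35 genes in each library, ordered by mean level, with CD55KO points above WT points in each row and gene names coloured by role. The genotypes overlap for most genes, Lman2l lies lower in CD55KO, and Kdelr3 is at the bottom with libraries at 0 not drawn.

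The COPII coat genes did not pass the test in either direction (0 of 8 by edgeR, 1 with an unadjusted p under 0.05, 0 by DESeq2 and by limma-voom), and their median log2 fold change was -0.03. That median was 0.01 without WT replicate 2, and -0.09 without WT replicate 1 or without CD55KO replicate 2. Over all tested genes the median was 0.0015, 8.6% had an unadjusted p under 0.05, and 49.6% had a negative log2 fold change. Sec23b, the more abundant of the SEC23 genes, had 70.1, 77.5 and 76.3 CPM in CD55KO libraries 1 to 3 and 86.2, 83.1 and 83.2 CPM in WT libraries 1 to 3. All CD55KO libraries lay below all WT libraries, and the difference did not pass over all genes (log2 fold change -0.17 ± 0.07 SE, adjusted p = 0.501 by edgeR's quasi-likelihood test). Sec23a, which encodes the other SEC23 protein, had 19.4 to 21.5 CPM in CD55KO, against 18.2 to 20.5 CPM in WT, with overlapping libraries. Per kb, Sec23b stood at 11.8 ± 0.63 CPM in CD55KO, against 13.4 ± 0.28 CPM in WT, above Sec23a at 4.28 ± 0.24 CPM in CD55KO, against 3.98 ± 0.24 CPM in WT.

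The balance between Sec23b and Sec23a is free of library scaling when taken as a ratio of counts within a library. The log2 ratio of Sec23b to Sec23a was 1.854, 1.848 and 1.849 in CD55KO libraries 1 to 3 and 2.175, 2.020 and 2.194 in WT libraries 1 to 3. Every CD55KO value lay below every WT value, with a difference of -0.28. How close the CD55KO values lie to each other was not compared with counting error (529 to 605 Sec23a counts per CD55KO library). The two-sided exact permutation p was 0.1, the smallest that 3 against 3 libraries allow (adjusted p = 0.3 over the 6 ratios compared), so this design cannot reach 0.05.

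The 4 SEC24 genes encode the subunit that selects cargo, and they differed in level far more than they differed between genotypes. Sec24c had 15.8 ± 0.89 CPM per kb in CD55KO and 15.7 ± 1.98 in WT. Sec24b had 2.36 ± 0.46 CPM per kb in CD55KO and 2.66 ± 0.36 in WT, Sec24a 0.873 ± 0.123 in CD55KO and 0.892 ± 0.078 in WT, and Sec24d 0.431 ± 0.048 in CD55KO and 0.379 ± 0.120 in WT. The libraries of the genotypes overlapped for each of the 4 genes. The log2 fold changes ran from -0.17 for Sec24b to 0.20 for Sec24d, whose 95% interval of -0.39 to 0.79 is the widest of all members at its level of 1.63 to 3.16 CPM over the 6 libraries. The count ratios of Sec24b to Sec24a and of Sec24d to Sec24c differed by -0.15 and 0.22 on the log2 scale, both with an adjusted p of 0.8 in the exact permutation test.

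Sec13, a subunit of the outer cage and the COPII coat gene with the highest level per kb, had 106, 118 and 116 CPM in CD55KO libraries 1 to 3 and 118, 117 and 132 CPM in WT libraries 1 to 3, with an overlap between the genotypes (log2 fold change -0.11 ± 0.08 SE, adjusted p = 0.761 by edgeR). Sec31a, its partner in the cage, had 66.0 ± 1.95 CPM in CD55KO, against 67.4 ± 6.47 CPM in WT. The 95% interval of the Sec31a fold change covered 86.9 to 110% of the WT level.

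The 5 genes that start and organise COPII assembly showed no call either (0 of 5 by edgeR, 0 with an unadjusted p under 0.05, 0 by DESeq2 and by limma-voom), and none had separate libraries. Sar1b, one of the genes for the SAR1 GTPase and the highest of the 5 per kb, had 61.9, 72.3 and 76.9 CPM in CD55KO libraries 1 to 3 and 79.9, 65.7 and 79.1 CPM in WT libraries 1 to 3. CD55KO replicate 1 was the lowest library and the others were mixed. Its sister Sar1a had 88.9 to 100 CPM in CD55KO, against 98.8 to 100 CPM in WT, and the log2 ratio of Sar1b to Sar1a differed by -0.03 between the genotypes (exact permutation adjusted p = 0.8). Tfg, which organises ER exit sites and had the smallest p of the 5, had 49.4, 51.9 and 59.7 CPM in CD55KO libraries 1 to 3 and 60.5, 56.0 and 55.4 CPM in WT libraries 1 to 3 (log2 fold change -0.09 ± 0.09 SE, adjusted p = 0.837 by edgeR). CD55KO replicate 3 lay among the WT libraries. Preb, the exchange factor of SAR1, had 54.0 ± 1.89 CPM in CD55KO, against 53.3 ± 5.77 CPM in WT, and the scaffold gene Sec16a 21.3 ± 0.53 CPM in CD55KO, against 21.8 ± 1.59 CPM in WT.

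Among the 7 COPI coat genes 6 had negative log2 fold changes, none passed the test by edgeR, DESeq2 or limma-voom, and none had an unadjusted p under 0.05. The median was -0.04, and -0.09 without WT replicate 1 and -0.08 without CD55KO replicate 1. Copz1, the zeta subunit, had 176, 180 and 170 CPM in CD55KO libraries 1 to 3 and 191, 198 and 191 CPM in WT libraries 1 to 3 (log2 fold change -0.14 ± 0.07 SE, adjusted p = 0.627 by edgeR). Its libraries did not overlap, nor did those of Copb2 (beta prime subunit) and Arcn1 (delta subunit), all lower in CD55KO. Over all tested genes 14.1% had libraries that did not overlap, and 6.84% did so with the lower values in CD55KO.

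The other COPI genes overlapped between genotypes. Cope had 241, 233 and 225 CPM in CD55KO libraries 1 to 3 and 231, 250 and 274 CPM in WT libraries 1 to 3, with WT replicate 3 the highest (log2 fold change -0.11 ± 0.08 SE). Copb1, the beta subunit, was the 1 COPI gene with a positive log2 fold change, at 149 ± 4.69 CPM in CD55KO, against 145 ± 6.33 CPM in WT. Copa and Copg1, the alpha and gamma subunits, had 159 ± 9.29 and 146 ± 8.80 CPM in CD55KO and 164 ± 7.87 and 150 ± 11.1 CPM in WT. Copb2 varied little between libraries, with 109, 109 and 108 CPM in CD55KO libraries 1 to 3 and 112, 110 and 112 CPM in WT libraries 1 to 3, so its separation amounts to a log2 fold change of -0.04 ± 0.07 SE. Copa shares exonic sequence with Ncstn on the opposite strand (3739.7 mean counts against 4319.7 for Copa). Strand was not kept in these libraries, so the counts of Copa are uncertain. Smaller overlaps with genes of the opposite strand affect Sec23a, Sec24c, Preb, Copg1 and Ergic2, with at most 74.2 mean counts for any overlapping gene.

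**Figure D2:**
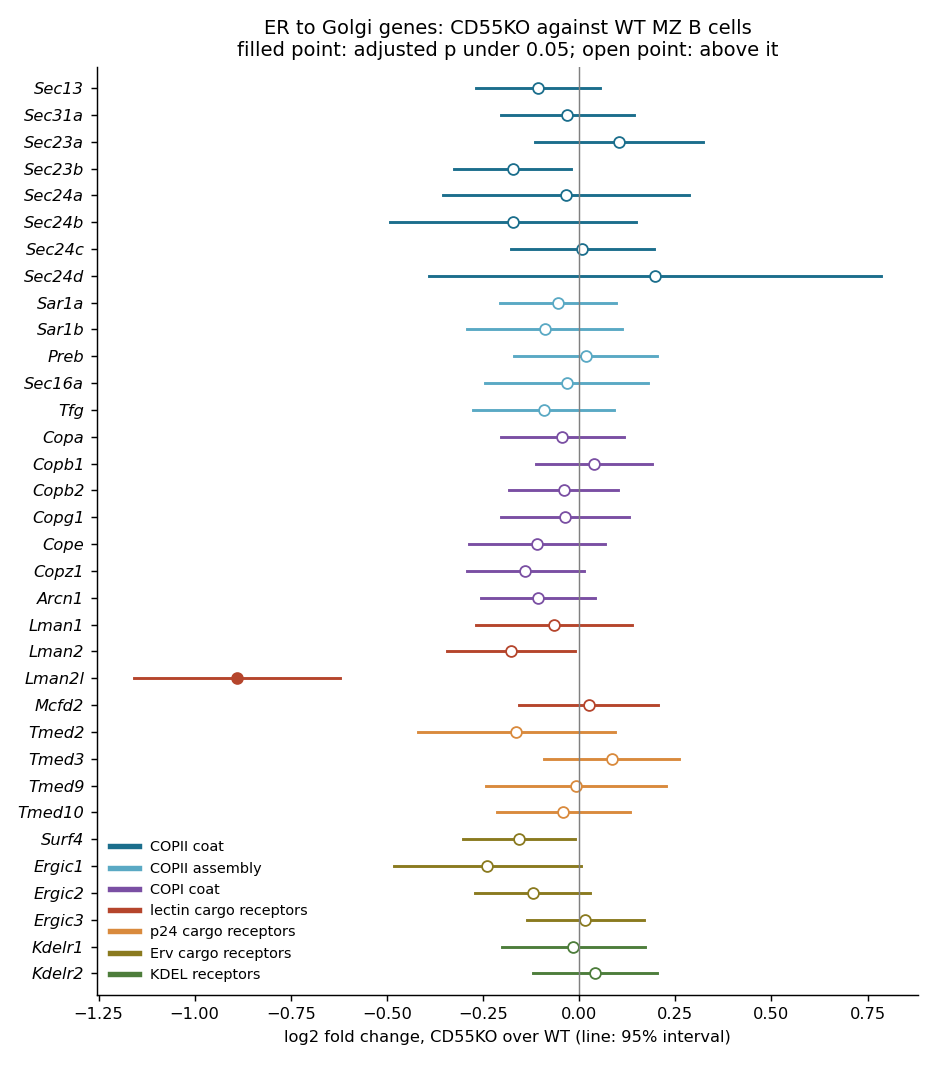
Log2 fold change of CD55KO over WT for the 34 tested genes, ordered and coloured by role, with points for the fitted value and lines for its 95% interval. Lman2l is the single filled point (adjusted p under 0.05), at -0.89, and the other points lie between -0.24 and 0.20.

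Of 12 tested cargo receptor genes 1 fell (0.399% of all tested genes were called) and 11 did not pass. Negative log2 fold changes were found for 9 (75%, against 49.6% of all tested genes), and the median was -0.09. Lman2l (ENSMUSG00000001143) is a chromosome 1 gene (36419871 to 36445271, minus strand, GRCm38) and encodes VIPL, an ER-resident lectin of the L-type family. It had 484, 331 and 378 counts in CD55KO libraries 1 to 3 and 506, 856 and 851 counts in WT libraries 1 to 3. As CPM these were 17.7, 13.4 and 13.2 in CD55KO and 24.6, 27.3 and 30.2 in WT. All CD55KO libraries were lower than all WT libraries, and CD55KO replicate 1 was the closest to WT.

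Lman2l fell to 54.0% of the WT level in CD55KO (95% interval 44.8 to 65.0%), with a log2 fold change of -0.89 ± 0.13 SE and an adjusted p of 0.0021 by edgeR's quasi-likelihood test. It ranked 18th by p among all tested genes. Leaving out any single library kept it past the threshold, with log2 fold changes from -1.04 to -0.81 and adjusted p up to 0.0278 (without WT replicate 3). Without WT replicate 1, the library that stood apart, it was -0.96 (adjusted p = 0.0032 by edgeR). In RNA of bulk samples, fewer cells of a type and less RNA per cell cannot be told apart. Lman2l and Cd55 share chromosome 1 and lie 94.0 Mb apart. Copa, the other member on this chromosome, lies 41.6 Mb from Cd55 and did not pass (log2 fold change -0.04 ± 0.08 SE). None of the 23, 61 and 83 other tested genes within 1, 5 and 10 Mb of Lman2l passed the threshold. As 0.399% of all tested genes were called, so few neighbours would seldom hold a call. Whether the DNA around Lman2l differs between the genotypes was not tested. Exons of Fer1l5 overlap Lman2l on the opposite strand, with a mean of 5.8 counts per library against 567.7 for Lman2l.

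Lman2, which encodes VIP36, a lectin of the early secretory pathway, had 147, 152 and 164 CPM in CD55KO libraries 1 to 3 and 166, 170 and 189 CPM in WT libraries 1 to 3. Its libraries were also separate, CD55KO replicate 3 and WT replicate 1 lay near each other, and the difference did not pass (log2 fold change -0.18 ± 0.08 SE, adjusted p = 0.543 by edgeR). Within libraries the log2 count ratio of Lman2l to Lman2 was -3.054, -3.509 and -3.635 in CD55KO and -2.759, -2.634 and -2.646 in WT. The ratio was lower in every CD55KO library than in every WT library, by -0.72, with the smallest exact permutation p the design allows (0.1, adjusted p = 0.3). Lman2l is named in these ratios with its call already known.

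Lman1 (ERGIC-53) and Mcfd2 form the receptor that exports coagulation factors V and VIII and other glycoproteins. Lman1 had 23.7 to 26.6 CPM in CD55KO, against 24.3 to 27.1 CPM in WT, and Mcfd2 had 40.4 ± 1.10 CPM in CD55KO, against 39.7 ± 2.66 CPM in WT. Both overlapped between the genotypes. Their 95% intervals covered 83.0 to 110% of the WT level for Lman1 and 89.7 to 115% for Mcfd2.

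None of the 4 p24 genes, whose proteins carry GPI-anchored and other cargo, passed the test by edgeR, DESeq2 or limma-voom, and none had an unadjusted p under 0.05 or separate libraries. Tmed9 had 283, 285 and 237 CPM in CD55KO libraries 1 to 3 and 279, 226 and 305 CPM in WT libraries 1 to 3, with the lowest and the highest library both in WT. Tmed2, with the smallest p of the 4, had 14.4, 14.6 and 17.3 CPM in CD55KO libraries 1 to 3 and 18.9, 17.1 and 16.0 CPM in WT libraries 1 to 3 (log2 fold change -0.16 ± 0.12 SE, adjusted p = 0.776 by edgeR). Tmed3 had 57.0 ± 3.16 CPM in CD55KO, against 53.7 ± 3.79 CPM in WT, and Tmed10 had 206 ± 12.5 CPM in CD55KO, against 212 ± 14.8 CPM in WT. Tmed10 has a pseudogene, Tmed10-ps, that could share its reads (337.5 mean counts against 5582 for Tmed10).

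Surf4 and the ERGIC genes, relatives of yeast Erv proteins, had a median of -0.14 and no call (0 of 4 by edgeR, DESeq2 or limma-voom, 1 with an unadjusted p under 0.05). Surf4, a receptor for many soluble secretory proteins, had 128, 132 and 137 CPM in CD55KO libraries 1 to 3 and 147, 146 and 149 CPM in WT libraries 1 to 3. The libraries were separate (log2 fold change -0.16 ± 0.07 SE, adjusted p = 0.537 by edgeR). Surf2 overlaps Surf4 on the opposite strand (1022.7 mean counts against 3748.2 for Surf4), so the counts of Surf4 are uncertain. Ergic3, the highest of the 4 per kb, had 95, 94.3 and 101 CPM in CD55KO libraries 1 to 3 and 90.6, 94.5 and 102 CPM in WT libraries 1 to 3, and the genotypes overlapped. Its partner Ergic2 had separate libraries (85.2 ± 2.40 CPM in CD55KO, 92.7 ± 4.57 CPM in WT). Ergic1 had 28.3 ± 3.59 CPM in CD55KO, against 33.4 ± 4.32 CPM in WT with overlapping libraries. Its exons overlap Dusp1 on the opposite strand (105.5 mean counts against 820.5 for Ergic1).

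**Figure D3:**
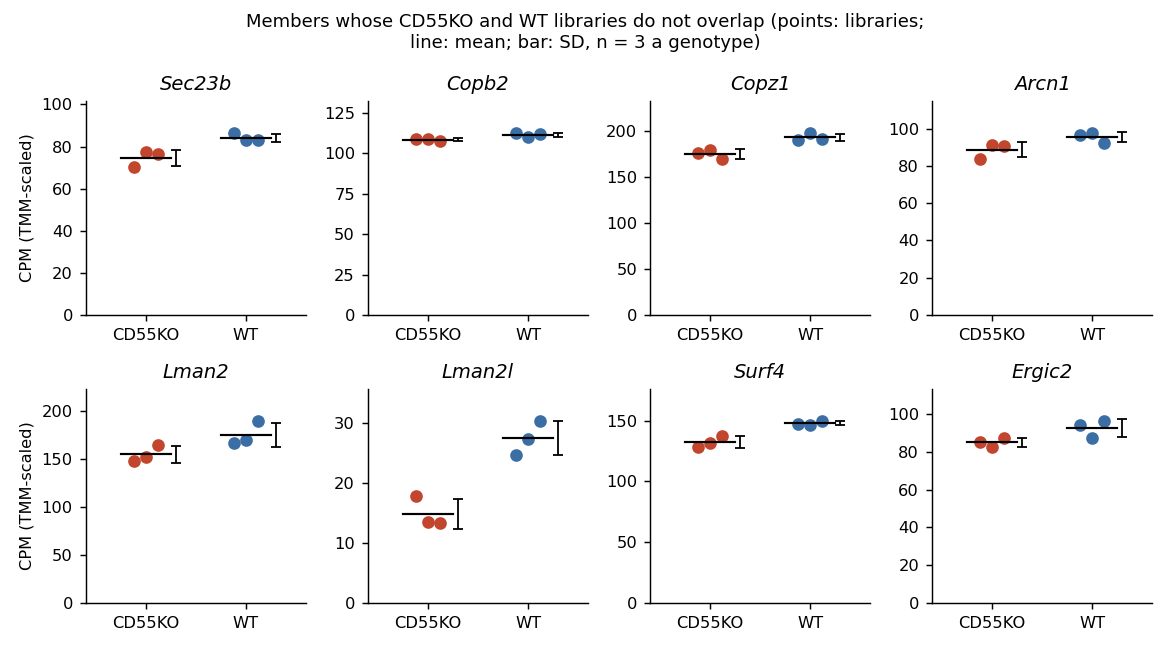
CPM (TMM-scaled, axis from 0) of the 8 genes whose CD55KO libraries (left) and WT libraries (right) do not overlap, with points for libraries, a line for the mean and a bar for the SD. All 8 are lower in CD55KO, Lman2l with 14.8 ± 2.56 CPM in CD55KO, against 27.4 ± 2.83 CPM in WT, and the other 7 by much less.

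The KDEL receptors, which bring ER chaperones back from the Golgi, did not differ beyond the spread of their libraries. Kdelr2, the highest of the 3 per kb, had 81.9, 96.0 and 87.0 CPM in CD55KO libraries 1 to 3 and 83.4, 84.7 and 89.3 CPM in WT libraries 1 to 3, with both the highest and the lowest value found among CD55KO libraries (log2 fold change 0.04 ± 0.08 SE, adjusted p = 0.938 by edgeR). Kdelr1 had 31.2 ± 1.21 CPM in CD55KO, against 31.6 ± 1.32 CPM in WT. The 95% intervals covered 92.0 to 115% of the WT level for Kdelr2 and 87.0 to 113% for Kdelr1. The log2 count ratio of Kdelr2 to Kdelr1 was 1.496 ± 0.166 in CD55KO and 1.440 ± 0.095 in WT (exact permutation adjusted p = 0.8).

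Set side by side, 25 of the 34 tested genes (73.5%) had negative log2 fold changes, against 49.6% of all tested genes, and the median was -0.04, against 0.0015 over all. Unadjusted p under 0.05 was found for 4 members (11.8%, all lower), against 8.6% of all genes and 4.3% in that direction. The 8 members with separate libraries (23.5%) were all lower in CD55KO, against 14.1% of all genes and 6.84% in that direction. Surf4, whose counts are uncertain, is among both the 4 and the 8. By role the median was -0.03 for the 13 COPII coat and assembly genes, -0.04 for COPI, -0.09 for the 12 cargo receptors and 0.01 for the 2 tested KDEL receptors. Apart from Lman2l, the log2 fold changes lay between -0.24 and 0.20.

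The mean log2 CPM over the 34 genes was 5.879, 5.906 and 5.901 in CD55KO libraries 1 to 3 and 5.965, 5.970 and 5.978 in WT libraries 1 to 3. Without Lman2l, left out after its value was known, it was 5.932, 5.971 and 5.967 in CD55KO and 6.006, 6.006 and 6.011 in WT. The genotypes stayed separate in both forms, by less than 0.1 on the log2 scale. The mean over the 12 cargo receptors was separate (5.924 to 5.994 in CD55KO, 6.049 to 6.189 in WT), but without Lman2l it overlapped (6.122 to 6.168 in CD55KO, 6.165 to 6.304 in WT). The 7 COPI genes were separate in the mean (7.153 to 7.213 in CD55KO, 7.223 to 7.267 in WT), and the 13 COPII coat and assembly genes overlapped (5.087 to 5.229 in CD55KO, 5.144 to 5.244 in WT).

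Summed CPM, to which the abundant genes contribute most, did not give the same order. The sum overlapped for the cargo receptors (1103 to 1142 CPM in CD55KO, 1115 to 1279 CPM in WT) and for COPI (1034 to 1089 CPM in CD55KO, 1086 to 1128 CPM in WT). It was separate for COPII (660.4 to 714 CPM in CD55KO, 719.5 to 734 CPM in WT) and over all members (2970 to 3022 CPM in CD55KO, 3092 to 3244 CPM in WT).

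Plasma cell markers were also lower in CD55KO on average. Of 9 tested markers of 10, 1 fell (Xbp1, described with the pathway genes), and 0.399% of all tested genes were called. Negative log2 fold changes were found for 7 (77.8%, against 49.6% of all tested genes) and positive ones for 2. The median was -0.23, against 0.0015 over all. The mean log2 CPM was 3.775 to 3.896 in CD55KO and 4.226 to 4.461 in WT. Without Xbp1 and Prdm1 it was 3.791 to 3.902 in CD55KO and 4.184 to 4.405 in WT. That remaining gap rests mainly on Jchain and Sdc1, neither of them called (log2 fold changes -1.44 and -1.15). The rest lay between -0.23 (Derl3) and 0.17 (Fkbp11). The summed level of all the markers overlapped, with 932 to 1124 CPM in CD55KO, against 1069 to 1200 CPM in WT. Most of it came from Mzb1, which MZ B cells also express.

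Among the defining plasma cell markers, Jchain had 2.64 to 9.88 CPM in CD55KO, against 10.9 to 32.4 CPM in WT, and did not pass (adjusted p = 0.694 by edgeR). Sdc1 had 0.525 to 1.76 CPM in CD55KO, against 1.21 to 2.62 CPM in WT, and did not pass either (adjusted p = 0.492 by edgeR). Tnfrsf17, too low to be tested, was at 0 in all CD55KO libraries and at 0.194, 0.032 and 0 CPM in WT libraries 1 to 3. The positive log2 fold changes were those of Irf4 (0.10) and Fkbp11 (0.17), and the libraries of Irf4, Fkbp11, Mzb1, Derl3 and Ell2 overlapped.

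Of the 7 germinal centre B cell markers 1 fell (0.399% of all tested genes were called). Negative log2 fold changes were found for 6, against 49.6% of all tested genes. The median was -0.67, against 0.0015 over all. Gcsam, a germinal centre signalling gene, had 0.513, 1.38 and 1.30 CPM in CD55KO libraries 1 to 3 and 5.15, 3.38 and 2.70 CPM in WT libraries 1 to 3, with separate libraries (log2 fold change -1.81 ± 0.36 SE, adjusted p = 0.0343 by edgeR). It passed under 6 of 14 alternatives and under none of those with a single library removed (highest adjusted p 0.161, with WT replicate 1 removed). The 7 markers summed to 27.8 to 37.0 CPM in CD55KO, against 31.1 to 79.0 CPM in WT. The part of plasma cells, germinal centre cells or follicular B cells in the levels of the transport genes was not tested.

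**Figure D4:**
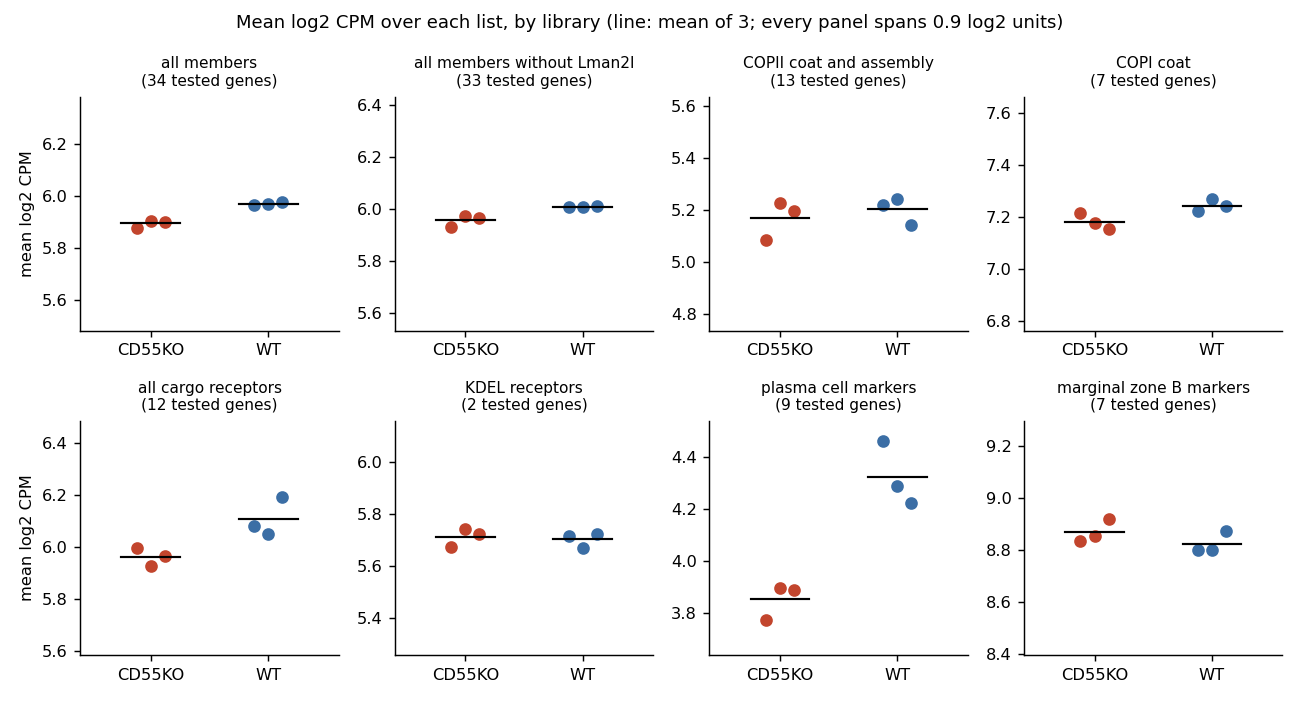
Mean log2 CPM in each library over the transport gene lists, plasma cell markers and MZ markers, CD55KO left and WT right, with a line for the mean of 3 libraries and the same span in every panel. The transport genes as a whole, the COPI coat and the cargo receptors (Lman2l included) are separate by small amounts, the COPII and KDEL receptor panels overlap, and of the 8 panels drawn the plasma cell markers differ most.

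Of 68 other genes of the pathway and its transcription factors 67 were tested, and 1 fell (1.49%, against 0.399% of all tested genes called). It was Xbp1, the transcription factor that enlarges the secretory pathway of plasma cells, with 71.6, 80.0 and 83.8 CPM in CD55KO libraries 1 to 3 and 129, 124 and 102 CPM in WT libraries 1 to 3 (log2 fold change -0.59 ± 0.09 SE, adjusted p = 0.0047 by edgeR). None rose. Negative log2 fold changes were found for 36 of the 67 (53.7%, against 49.6% of all tested genes), and the median was -0.01, against 0.0015 over all. Of the 30 tethers and SNAREs 16 were negative, and Trappc3, a TRAPP tether subunit with the smallest p, had 82.0 ± 1.75 CPM in CD55KO, against 92.5 ± 7.87 CPM in WT (adjusted p = 0.544 by edgeR).

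Of the 9 tested genes of the ARF cycle and of other COPI subunits 7 were negative, and Arf5, with the smallest p, had 7.30 ± 0.73 CPM in CD55KO, against 6.53 ± 0.53 CPM in WT (adjusted p = 0.846 by edgeR). Among the 18 other exit site and p24 genes 10 were positive. Bcap29, an ER membrane protein gene, had 83.6, 83.4 and 83.9 CPM in CD55KO libraries 1 to 3 and 77.8, 62.0 and 75.4 CPM in WT libraries 1 to 3, all CD55KO libraries being higher (adjusted p = 0.438 by edgeR). Of the 10 secretory transcription factors 5 were negative, and 3 had an unadjusted p under 0.05, all lower (30%, against 8.6% of all genes). Separate libraries were found for 5 (50%, against 14.1% of all genes). Of these 4 were lower in CD55KO, against 6.84% of all genes in that direction. Prdm1, Atf6b and Atf6 are named after their values were seen. Prdm1, a plasma cell regulator, had 2.76 ± 0.59 CPM in CD55KO, against 4.68 ± 0.46 CPM in WT (adjusted p = 0.254 by edgeR). Atf6b, a relative of the ER stress sensor gene Atf6, had 62.6 ± 3.70 CPM in CD55KO, against 74.6 ± 6.42 CPM in WT (adjusted p = 0.310 by edgeR). Atf6 itself was higher, at 44.4 ± 0.77 CPM in CD55KO, against 40.4 ± 1.81 CPM in WT, with separate libraries (adjusted p = 0.696 by edgeR). Xbp1 passed under all 14 alternatives, added for these genes after the data were seen, and no other gene of the 4 lists was called under any of them.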

How the data were processed

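Bulk RNA sequencing of sorted MZ B cells gave 6 libraries, grouped by the genotype in the labels (CD55KO and WT, 3 each). The authors deposited estimated counts, unscaled, since library totals differ. DRAGEN, edgeR and limma appear in the submitters' processing notes, with neither version nor role. Per the labels' protocols, cDNA was made with a SMARTer Ultra Low kit, which keeps no strand. Aligner settings and the build behind the counts were not given in the sources used here. Gene positions and exonic lengths come from GENCODE M21 (GRCm38), matched by gene ID (99.5% of IDs found, 98.9% of them with the same number of transcripts).

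The 287 repeated rows, with identical values, were dropped (55774 rows, 55487 genes left) and counts were rounded. The comparison of genotypes used edgeR 4.0.16 (R 4.3.3): filterByExpr (minimum count 10, minimum total 15, 13794 genes kept, 41693 removed), TMM, and the robust quasi-likelihood F-test with genotype alone in the model, adjusted by Benjamini and Hochberg over all tested genes with a threshold of 0.05. Log2 fold changes are CD55KO over WT. No replicate was a duplicate of another (chi-square over its degrees of freedom 14.2 to 36.1 between replicates, above sampling noise). The 6 paralogue ratios were compared by two-sided exact permutation.

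Alternatives were other scalings (DESeq2 size factors, library totals, scaling without immunoglobulin genes), DESeq2 1.42.0, limma-voom (limma 3.58.1), count filters, a replicate block and leaving out each library. Genes named with all their values are members past the threshold and, in each role, the member with the smallest p and the one with the highest level per kb, with ranges or means for the rest. Other pathway genes are named when past the threshold, or else the one with the smallest p in each list. The members and lists were chosen with earlier results of these data known.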

Additional observations from a re-analysis of the deposited data

How the results depend on the processing

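The count of 1 member lower and 0 higher held under all 14 alternatives, and Lman2l, the member called, passed in each. Over the 8 alternatives that kept all libraries its log2 fold change was -0.90 to -0.89, with adjusted p up to 0.0093 (limma-voom). The other pathway genes kept 1 call lower and 0 higher under the same 14. Over all genes the number called was 137 by DESeq2 (61 higher, 76 lower) and 232 without a count filter (104 higher, 128 lower), against 55 (19 higher, 36 lower). The cause was not tested. Without 1 library the number called was 37 to 53, with 12 to 20 higher (12 without WT replicate 3) and 24 to 35 lower (24 without CD55KO replicate 2).

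The replicate number as a block called 64 genes (21 higher, 43 lower), 1 member lower and 0 higher. Same-numbered libraries did not deviate together in a regular way (correlations 0.071, -0.115 and 0.167 for numbers 1 to 3, and not every library correlated best with its own number), so the numbers were not taken as pairs.

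The median log2 fold change of the members was -0.066 to -0.041 without 1 library (lowest without WT replicate 1). By role, without 1 library, the median of the p24 genes was -0.105 to 0.050 (positive without CD55KO or WT replicate 3), of the COPII coat -0.089 to 0.011 (positive without WT replicate 2), of the KDEL receptors -0.0058 to 0.034 (negative without CD55KO or WT replicate 2), of COPII assembly -0.088 to -0.0035 and of COPI -0.090 to -0.037 (all negative). Among the other scalings, library totals moved the log2 fold changes of all genes most, with a median shift of -0.0081. The sign of 13 uncalled members turned when 1 library was left out, and under no other alternative. Their log2 fold changes without 1 library were -0.107 to 0.025 for Sec31a, -0.143 to 0.061 for Sec24a, -0.080 to 0.101 for Sec24c, -0.019 to 0.433 for Sec24d, -0.047 to 0.107 for Preb, -0.089 to 0.0026 for Sec16a, -0.090 to 0.016 for Copg1, -0.013 to 0.079 for Mcfd2, -0.123 to 0.088 for Tmed9, -0.088 to 0.012 for Tmed10, -0.021 to 0.063 for Ergic3, -0.040 to 0.018 for Kdelr1 and -0.025 to 0.093 for Kdelr2. Of the count ratios, Sec24d to Sec24c (-0.042 to 0.538), Sar1b to Sar1a (-0.120 to 0.013) and Kdelr2 to Kdelr1 (-0.038 to 0.120) turned in the same way. Those of Sec23b to Sec23a (-0.334 to -0.247), Lman2l to Lman2 (-0.892 to -0.602) and Sec24b to Sec24a (-0.275 to -0.017) did not. Kdelr3, at 0 to 4 counts, was too shallow to be tested.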
